A study of Mus musculus with 10 samples.

Results

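The enzymes that oxidize ethanol to acetaldehyde and acetaldehyde to acetate were followed in whole brains of adult mice exposed to ethanol through their mothers. They are 4 alcohol dehydrogenases (Adh1, Adh4, Adh5 and Adh7), 3 aldehyde dehydrogenases (Aldh2, Aldh1b1 and Aldh3a2), the microsomal cytochrome P450 Cyp2e1 and the peroxisomal catalase Cat. Members were the probe sets whose annotation gives exactly 1 gene symbol and that symbol is one of these. Each of the 9 genes had 1 such probe set, so 9 of the 21789 probe sets with a single gene symbol were members. The ethanol groups were male C57BL/6J offspring of females that drank 10% ethanol in water from conception until the pups reached postnatal day 10. The control groups were male offspring of females of the same strain that had water alone. No mutation or transgene is listed for any group, and offspring of both groups were killed at postnatal day 70, long after the ethanol had been withdrawn. Experiment 1 had 2 ethanol and 2 control arrays, each hybridised with RNA pooled from 3 brains, and experiment 2 had 3 ethanol and 3 control arrays with 2 brains each. Each array is therefore a pool of animals, and ethanol intake of single pups is not given in the sources used here.

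Oxidation of ethanol begins with the removal of hydrogen by an alcohol dehydrogenase, with a monooxygenation by CYP2E1 in the endoplasmic reticulum, or with the peroxidation of ethanol by catalase, which uses hydrogen peroxide. The acetaldehyde formed is reactive, and mitochondrial aldehyde dehydrogenase clears most of it to acetate. Liver relies mainly on alcohol dehydrogenase, whereas in brain the classical ethanol-active alcohol dehydrogenases are scarce and catalase and CYP2E1 are regarded as the main ethanol-oxidizing enzymes.

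The question was whether transcripts of these enzymes differ in the adult brain after early exposure. Values are log2 levels as deposited. In this table the mean over the arrays of experiment 1 equals that over experiment 2 for each probe set, to within 5.83e-05 log2 units, so levels were compared within experiments only. Against the label of whole brain, all 6 neuronal and all 8 astrocyte markers lay above the median signal, with list means of 11.6 to 11.7 and 10.9 log2 units on the ethanol arrays, against 11.6 to 11.7 and 10.9 to 11.0 on the control arrays. Pools differed in markers of neighbouring tissue. Of the 10 olfactory mucosa markers listed, 8 were measured, and their mean ran from 5.16 to 7.08 on the ethanol arrays and from 5.10 to 7.77 on the control arrays of experiment 2. Pituitary markers (7 of 8 measured) ran from 6.23 to 8.68 on ethanol and from 6.14 to 6.57 on control arrays of that experiment, and in experiment 1 from 7.23 to 8.10 on ethanol and from 5.63 to 5.77 on control arrays.

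Signal differed widely among the enzymes. Mean signal over the 10 arrays fell at percentile 88.1 of the single-gene probe sets for Cat, 84.3 for Adh5, 78.5 for Aldh3a2 and 72.2 for Aldh2. Aldh1b1 lay lower, at percentile 41.0. Adh1, Adh7, Adh4 and Cyp2e1 were at percentiles 25.3, 20.5, 13.8 and 7.45. Probe sets bind with different strength, so these percentiles describe array signal and do not rank the enzymes by transcript number. The table used here holds no detection call.

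The alcohol dehydrogenases form one gene cluster. In the RefSeq annotation of assembly GRCm38.p6 the protein-coding order is Adh7, Adh1, Adh6a, Adh6b, Adh4 and Adh5, with no other protein-coding gene between them. Adh5 gave a bright signal next to dim family members. Start-site sequences in RefSeq matched 8 of the 9 enzymes. Those of Adh1 and Adh5 are shown as a dim and the bright member of the cluster, Adh5 with the more downstream of its 2 annotated starts, Cyp2e1 as the dimmest probe set and Cat as the brightest. Each is the 250 bases before an annotated start, 5′ to 3′, on build GRCm38.p6, with CpG dinucleotides in capitals.
Adh1 (chr3:138277335-138277584, + strand): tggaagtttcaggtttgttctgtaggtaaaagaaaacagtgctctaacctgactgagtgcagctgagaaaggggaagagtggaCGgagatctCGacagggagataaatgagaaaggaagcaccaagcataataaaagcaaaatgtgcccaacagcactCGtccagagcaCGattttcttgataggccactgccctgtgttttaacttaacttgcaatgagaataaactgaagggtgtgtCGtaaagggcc
Adh5 (chr3:138442843-138443092, + strand): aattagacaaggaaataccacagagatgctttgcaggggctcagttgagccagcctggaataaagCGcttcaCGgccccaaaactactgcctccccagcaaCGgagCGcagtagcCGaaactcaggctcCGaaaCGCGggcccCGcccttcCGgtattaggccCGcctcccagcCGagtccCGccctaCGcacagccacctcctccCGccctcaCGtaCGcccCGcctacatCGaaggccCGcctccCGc
Cyp2e1 (chr7:140763569-140763818, + strand): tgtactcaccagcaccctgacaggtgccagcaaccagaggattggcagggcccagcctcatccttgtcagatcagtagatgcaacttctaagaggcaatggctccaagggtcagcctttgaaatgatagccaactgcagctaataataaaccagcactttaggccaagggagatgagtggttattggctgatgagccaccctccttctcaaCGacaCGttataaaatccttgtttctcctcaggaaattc
Cat (chr2:103485154-103485403, - strand): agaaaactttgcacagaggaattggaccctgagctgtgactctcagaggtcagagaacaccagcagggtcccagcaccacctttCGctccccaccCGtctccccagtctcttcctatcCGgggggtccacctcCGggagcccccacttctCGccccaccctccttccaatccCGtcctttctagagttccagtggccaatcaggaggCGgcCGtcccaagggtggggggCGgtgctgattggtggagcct
The windows hold 5 CpG for Adh1, 2 for Cyp2e1 and 9 for Cat. Adh5 has 21 CpG before this start and 2 before its other annotated start. The remaining windows hold 1 CpG for Adh7, 1 for Adh4, 4 for Aldh1b1 and 18 for Aldh3a2. Over all 32851 annotated windows of the same length the median was 6, and 14.8% held more than the 21 of Adh5 while 71.0% held more than the 2 of Cyp2e1. The motif TATAA, searched on both strands, occurred in the windows of Adh7, Cyp2e1 and the CpG-poor start of Adh5, and in 22.8% of all windows. These counts describe the letters of the windows, and no measurement of promoter activity was made.

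No enzyme's ethanol difference over both experiments passed an adjusted p of 0.05 (limma, Benjamini-Hochberg over 21789 probe sets), nor did that of any other probe set (0%). The unadjusted p was under 0.05 for 0 of the 9, and for 12.4% of all probe sets. Adjusted p ran from 0.525 for Cat to 0.860 for Adh5. The estimates were small, from -0.10 log2 units for Adh1 to 0.037 for Adh4, with standard errors of 0.039 to 0.097. As deposited, 5 of the 9 were below and 4 above 0 (Adh4, Adh5, Adh7 and Cyp2e1), while 8 of 9 were below 0 both after quantile normalization, all but Adh5, and with arrays centred on their medians, all but Adh4. Of all probe sets 54.4% were below 0 as deposited, 58.6% after quantile normalization and 68.2% with median centring. The median of the 9 was -0.025, beside -0.0083 over all probe sets, and was above 0 without control replicate 2 of experiment 2 (0.010) or ethanol replicate 2 of experiment 1 (0.0036). The widest 95% interval, that of Adh1, reached a 1.24-fold difference, and that of Cat a 1.16-fold difference, so differences up to these sizes lie within the intervals that this number of arrays gives.

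**Figure D1:**
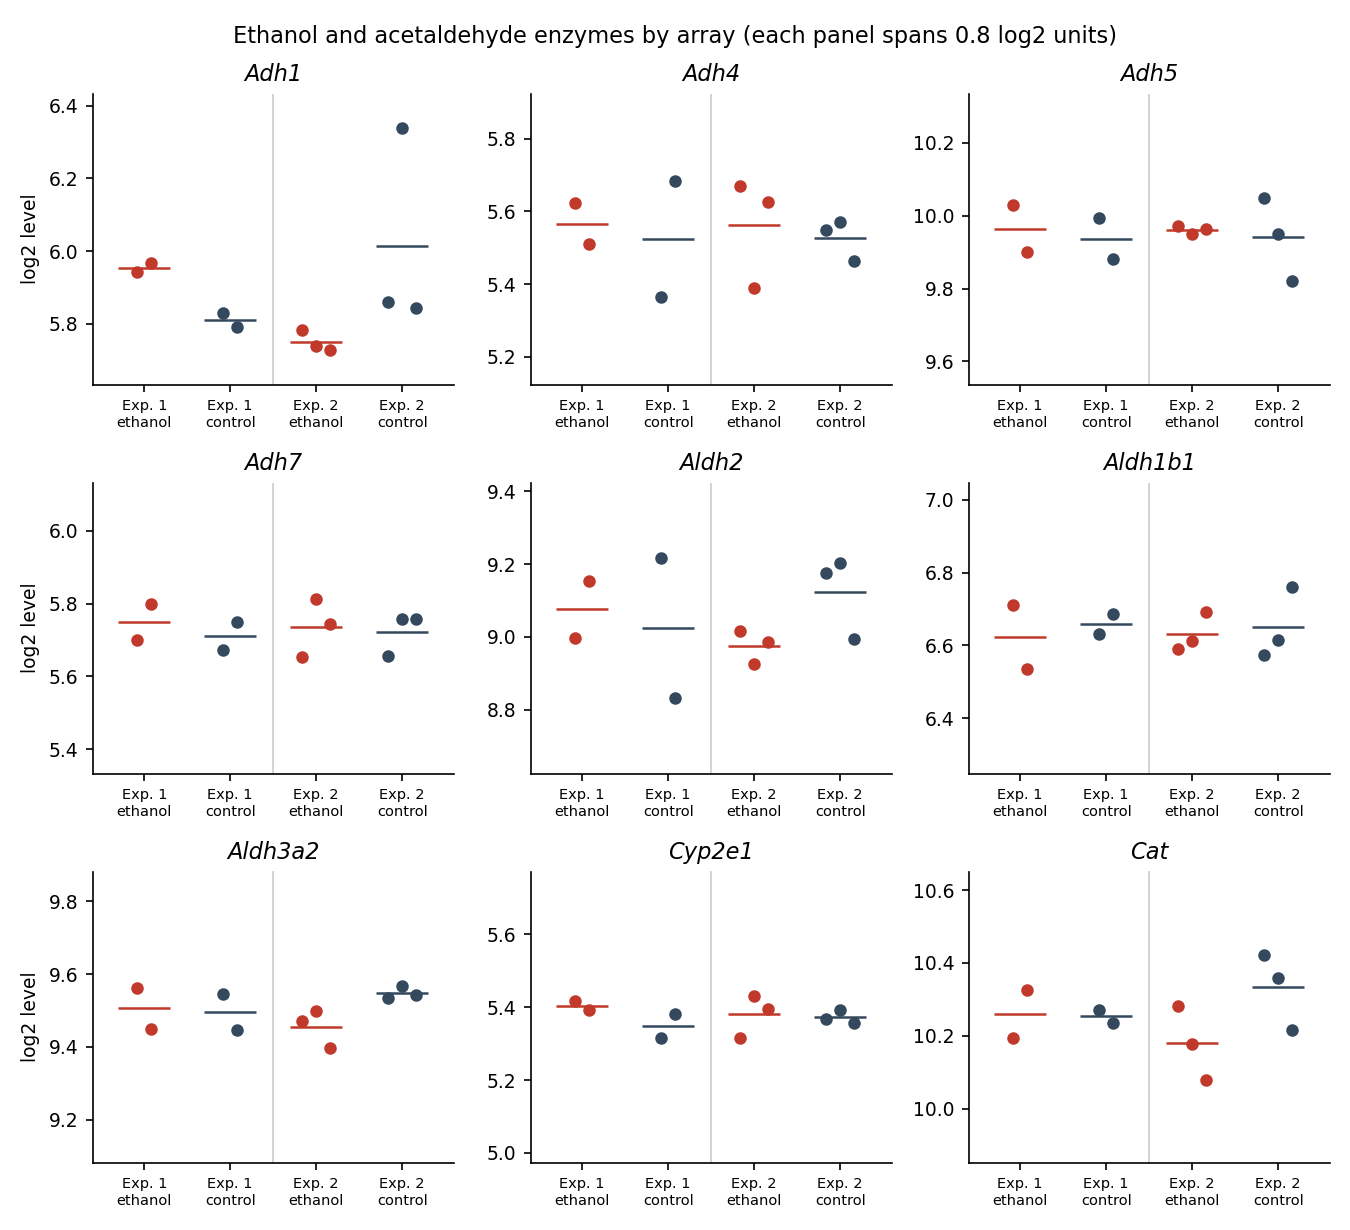
Log2 level of each enzyme (vertical axis, 0.8 log2 units in every panel) on every array, with ethanol arrays in red, control arrays in dark blue and group means as lines, experiment 1 left and experiment 2 right of the grey line. The point at 6.34 in the Adh1 panel is control replicate 2 of experiment 2, and for most enzymes the groups overlap.

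Adh1, the class I enzyme that carries out most ethanol oxidation in liver, varied most among the arrays. In experiment 1 its level was 5.94 and 5.97 on the ethanol arrays, against 5.83 and 5.79 on the controls. Experiment 2 gave 5.78, 5.74 and 5.73 on the ethanol arrays, against 5.86, 6.34 and 5.84 on the controls. The groups did not overlap in either experiment, and the directions were opposite. Of all probe sets, 34.3% did not overlap in experiment 1 and 19.2% in experiment 2, in either direction. The difference was 0.14 ± 0.13 log2 units (SE) in experiment 1, with limma adjusted p = 0.777. In experiment 2 it was -0.26 ± 0.11, with unadjusted p = 0.0302 and adjusted p = 0.448. Control replicate 2 of experiment 2 set the size of that difference. Without it the experiment 2 difference was -0.10 and the difference over both experiments was 0.010, against -0.10 with it.

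That array also stood apart in olfactory mucosa markers, whose part in the Adh1 value was not tested. Relative to the control mean of experiment 2, they were higher by 1.71 log2 units on it, against -0.75 and -0.96 on the other controls. Its meningeal and choroid plexus markers were at 0.043 and 0.054 from that mean, the highest among these controls. Control replicate 1 had 0.011 and 0.016, and control replicate 3 had -0.053 and -0.071. On the ethanol arrays of experiment 2, olfactory mucosa markers were at 1.02, -0.85 and -0.90, with Adh1 levels of 5.78, 5.74 and 5.73. These are means of a list whose members differed in direction. In that experiment 6 of the 8 had a lower ethanol mean, while Obp1a (0.73 ± 1.15) and Obp2a (0.74 ± 1.44) had a higher one. Ethanol replicate 1 had higher olfactory mucosa markers than control replicates 1 and 3, and an Adh1 level of 5.78, against their 5.86 and 5.84. In experiment 1 the markers were at 0.096 and -0.0047 on the ethanol arrays, against -0.027 and 0.027 on the controls. Adh1 was higher there on both ethanol arrays. The genes whose pattern over the 10 arrays came closest to that of Adh1 were Pon1, which encodes the lipoprotein-associated esterase paraoxonase (Pearson r = 0.97), Trim30d (0.95) and Bpifb9a (0.95). Adh1 was picked for this comparison after its values were seen and the 3 genes are the highest of all probe sets by selection. The coefficients are over values centred within each experiment. In bulk RNA, a different number of cells of a type and a different amount of RNA per cell cannot be told apart.

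**Figure D2:**
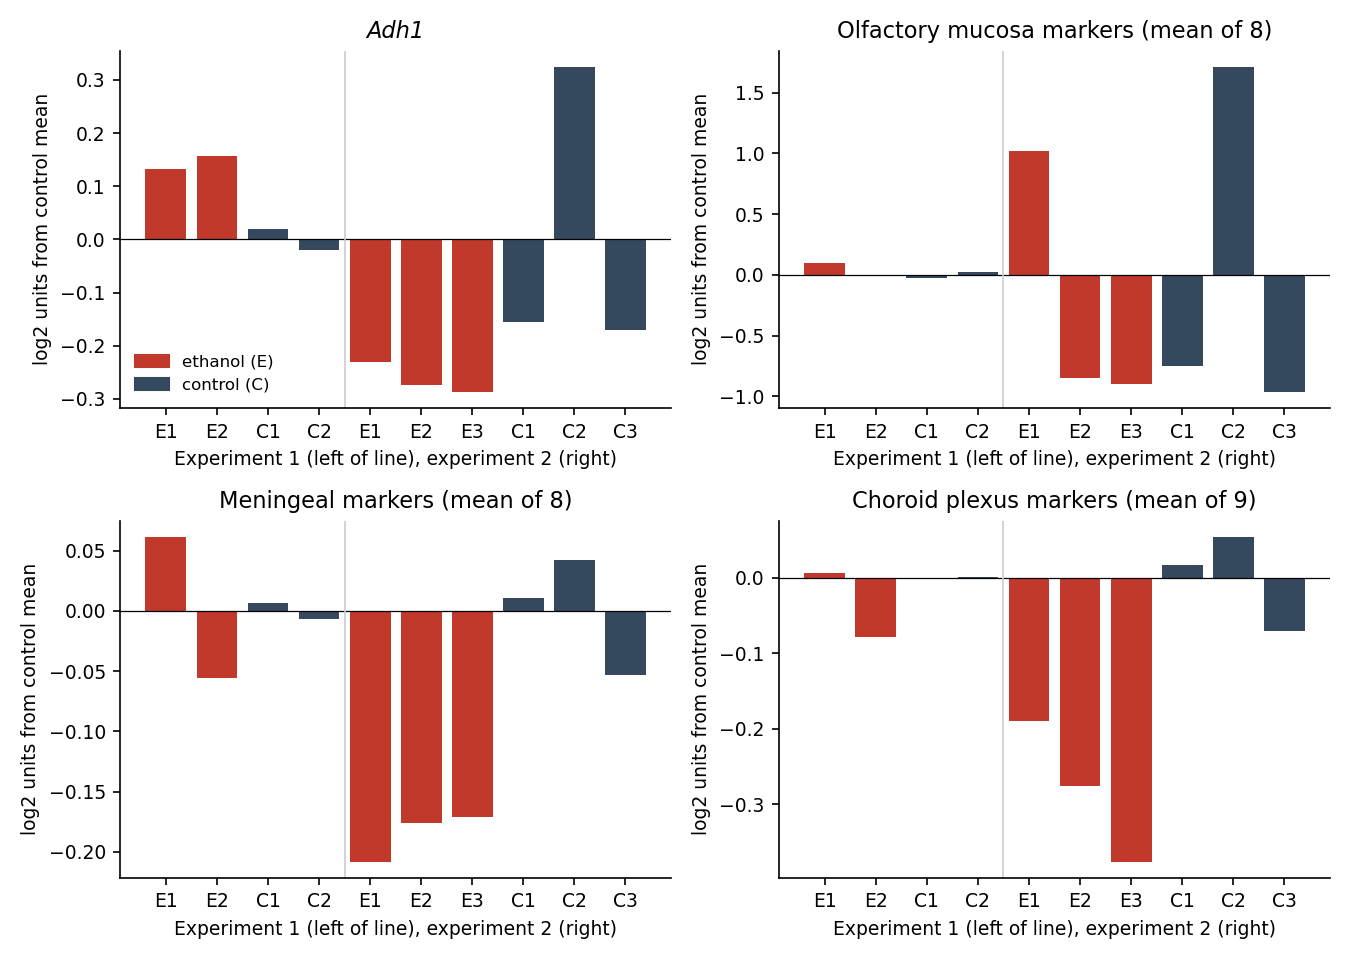
Distance from the experiment's control mean, in log2 units, of Adh1 and of the mean of 3 marker lists on each array (E ethanol, red; C control, dark blue; numbers are replicates; each panel has its own vertical scale). Control replicate 2 of experiment 2 is high for Adh1 (0.32) and for olfactory mucosa markers (1.71), and ethanol replicate 1 is high for the markers (1.02) with Adh1 at -0.23 from a control mean that includes control replicate 2.

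Adh5, the class III enzyme that oxidizes the glutathione adduct of formaldehyde and reduces S-nitrosoglutathione, takes little part in ethanol oxidation. Its levels on the ethanol arrays were 10.03 and 9.90 in experiment 1 and 9.97, 9.95 and 9.96 in experiment 2. The corresponding controls had 9.99 and 9.88, and 10.05, 9.95 and 9.82. Ethanol and control arrays overlapped in both experiments, with a difference of 0.024 ± 0.050 log2 units over both, or -0.00333 with arrays centred on their medians. The ethanol arrays of experiment 2 lay within an SD of 0.011 (n = 3), against 0.114 for its controls (n = 3), a contrast that was not tested.

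Adh4, a class II enzyme known mainly from liver, had dim signal of 5.62 and 5.51 on the ethanol arrays and 5.36 and 5.68 on the controls of experiment 1. Experiment 2 gave 5.67, 5.39 and 5.63 on ethanol arrays, against 5.55, 5.57 and 5.46 on controls. Adh7, the class IV enzyme of stomach and other epithelia, which also oxidizes retinol, had 5.70 and 5.80 on ethanol and 5.67 and 5.75 on control arrays in experiment 1. In experiment 2 its values were 5.65, 5.81 and 5.74 on ethanol arrays, against 5.66, 5.76 and 5.76 on controls. Both genes overlapped between the groups in each experiment. Their differences over both experiments were 0.037 ± 0.068 and 0.024 ± 0.045 log2 units, less than their SE. Both turned negative after quantile normalization (-0.00382 and -0.022), while median centring gave 0.0097 and -0.00364.

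Aldh2, the mitochondrial enzyme with the highest affinity for acetaldehyde, was lower on average on the ethanol arrays of experiment 2, with overlap and without passing the test. Its levels there were 9.02, 8.92 and 8.99 on ethanol arrays, against 9.17, 9.20 and 8.99 on controls. Ethanol replicates 2 and 3 lay below all controls and replicate 1 above control replicate 3. In experiment 1 it had 8.998 and 9.15 on ethanol arrays, against 9.22 and 8.83 on controls, which spanned the ethanol values. The difference was -0.15 ± 0.09 log2 units in experiment 2 (limma adjusted p = 0.615) and 0.051 ± 0.115 in experiment 1 (adjusted p = 0.932). Over both it was -0.068 ± 0.075, with 4 of 5 ethanol arrays below their control mean. Single arrays of both experiments moved this value. It was -0.036 without control replicate 2 of experiment 2 and -0.11 without ethanol replicate 2 of experiment 1. With 1 array left out it ran from -0.15 without control replicate 2 of experiment 1, the lowest array (limma unadjusted p = 0.0241, adjusted p = 0.293), to -0.028 without control replicate 1, the highest (unadjusted p = 0.726, adjusted p = 0.933).

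Aldh1b1, a mitochondrial relative of Aldh2 that also accepts acetaldehyde, had 6.71 and 6.53 on the ethanol arrays, against 6.63 and 6.69 on the controls of experiment 1. In experiment 2 the values were 6.59, 6.61 and 6.69 on ethanol arrays, against 6.57, 6.61 and 6.76 on controls. The groups overlapped, and the difference was -0.025 ± 0.050 log2 units over both experiments.

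Aldh3a2, the microsomal fatty aldehyde dehydrogenase, whose loss in humans causes Sjögren-Larsson syndrome, was one of the enzymes whose arrays did not overlap in experiment 2. There it had 9.47, 9.50 and 9.40 on ethanol arrays, against 9.53, 9.57 and 9.54 on controls. In experiment 1 the ethanol arrays had 9.56 and 9.45, against 9.55 and 9.45 on the controls, and the groups overlapped. The experiment 2 difference was -0.092 ± 0.055 log2 units (limma adjusted p = 0.597), and that of experiment 1 was 0.0087 ± 0.067. Ethanol and control did not overlap in experiment 2 for 2 of the 9 enzymes, Adh1 and Aldh3a2, both with ethanol lower. Of all probe sets 19.2% did not overlap there, and 11.6% had ethanol lower. In experiment 1 the arrays did not overlap for 2 of the 9, Adh1 and Cyp2e1, both with ethanol higher, while 34.3% of all probe sets did not overlap and 15.1% had ethanol higher.

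Cyp2e1, the ethanol-inducible P450 of the endoplasmic reticulum, had the dimmest probe set of the 9. Its levels were 5.42 and 5.39 on ethanol arrays of experiment 1, against 5.32 and 5.38 on controls. In experiment 2 they were 5.32, 5.43 and 5.40 on ethanol arrays, against 5.37, 5.39 and 5.36 on controls. The whole range over 10 arrays was thus 5.32 to 5.43, and the difference was 0.027 ± 0.039 log2 units over both experiments (limma adjusted p = 0.791). That value was -0.013 after quantile normalization and -0.00012 with arrays centred on their medians.

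Cat, the catalase that oxidizes ethanol with hydrogen peroxide in the brain, had the smallest p of the 9 over both experiments, without passing the threshold. The ethanol arrays of experiment 2 had 10.28, 10.18 and 10.08, against 10.42, 10.36 and 10.22 on its controls. All ethanol arrays there were below the control mean, but replicate 1 lay above control replicate 3. Experiment 1 gave 10.19 and 10.32 on ethanol arrays, against 10.27 and 10.24 on controls, with the ethanol arrays on both sides of the controls. The difference was -0.15 ± 0.07 log2 units in experiment 2 (limma unadjusted p = 0.0526, adjusted p = 0.503) and 0.0060 ± 0.087 in experiment 1 (adjusted p = 0.990). Over both experiments it was -0.090 ± 0.058 (adjusted p = 0.525), lower on 4 of 5 ethanol arrays. The two-sided exact permutation test within experiments gave p = 0.2 for Cat and p = 0.2 for Aldh3a2, the smallest of the 9, and can go no lower than 0.0167 with its 120 assignments.

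The 3 genes whose pattern over the 10 arrays was most like that of Cat were Mrpl45, a protein of the mitochondrial ribosome (Pearson r = 0.99), Ufsp2, a protease of the ubiquitin-like modifier UFM1 (0.98), and Drc1, a component of the dynein regulatory complex of motile cilia (0.97). They were chosen by rule for the member with both the smallest p and the brightest signal, as the highest coefficients among all probe sets on the same 10 arrays.

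**Figure D3:**
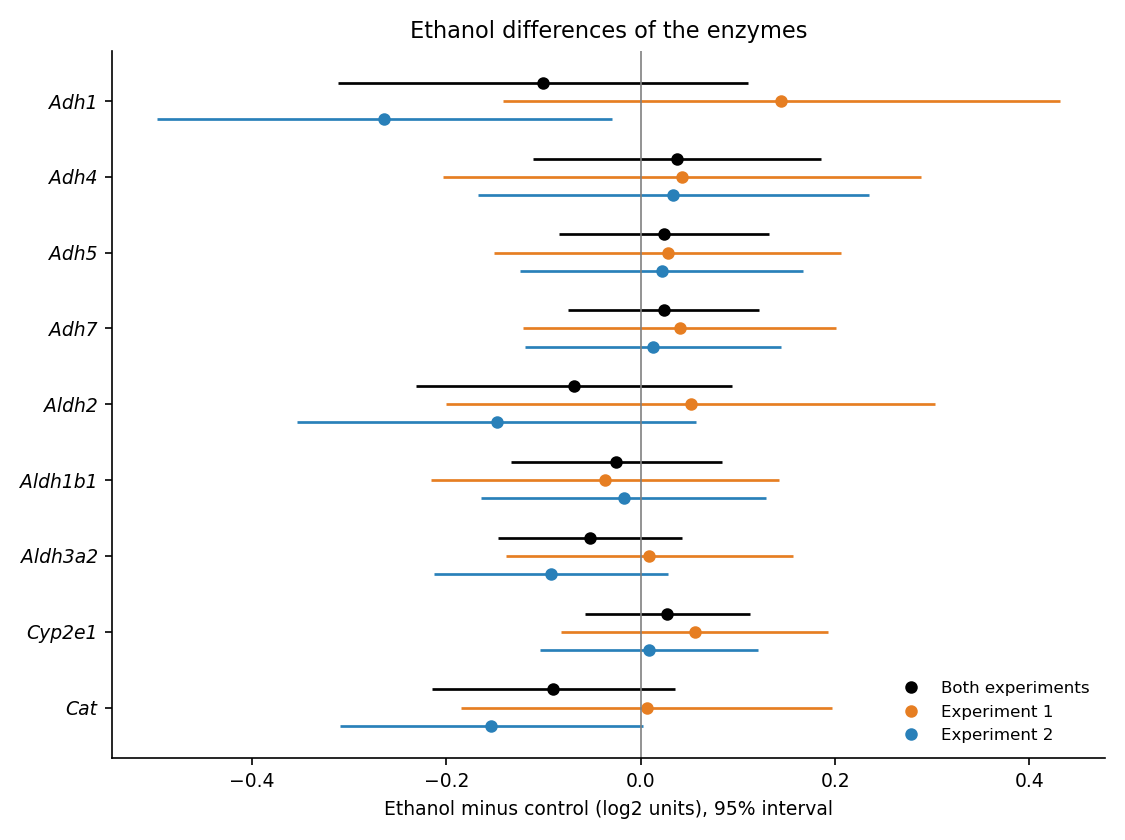
Ethanol minus control difference in log2 units (horizontal axis) with its 95% interval for each enzyme, over both experiments (black), in experiment 1 (orange) and in experiment 2 (blue). Each interval includes 0 except that of Adh1 in experiment 2, which runs from -0.50 to -0.030.

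Within experiments the enzymes gave 0 calls at adjusted p 0.05 by limma. In experiment 1, 0 of 9 had an unadjusted p under 0.05 (8.95% of all probe sets). Of the 9 differences, 8 were above 0 and 1 below, with a median of 0.040. Below 0 were 51.8% of all probe sets there. Of the 8 enzymes above 0, Adh4 and Adh7 were below 0 after quantile normalization and Aldh3a2 and Cat with median centring. In experiment 2, 1 of 9 had an unadjusted p under 0.05, Adh1 (9.97% of all probe sets). There 5 of 9 differences were below 0, with a median of -0.018 over the 9, while 54.9% of all probe sets were below 0. The other 4 enzymes were below 0 with median centring, under which 71.7% of all probe sets were. Medians over all probe sets were -0.0045 in experiment 1 and -0.011 in experiment 2. The difference between the experiments was itself tested, and 1 of 9, again Adh1 (-0.41 ± 0.17 log2 units, experiment 2 minus experiment 1), had an unadjusted p under 0.05 (limma unadjusted p = 0.0331, adjusted p = 0.745), against 6.57% of all probe sets. Aldh2 (-0.20 ± 0.15), Cat (-0.16 ± 0.11) and Aldh3a2 (-0.10 ± 0.09) had unadjusted p of 0.204, 0.182 and 0.270 in that test. With 1 array left out, the Aldh2 value ran from -0.39 without control replicate 1 of experiment 1 (limma unadjusted p = 0.0113, adjusted p = 0.753) to -0.0082 without its control replicate 2 (unadjusted p = 0.950, adjusted p = 0.997). Lists of tissue markers differed in both directions in experiment 2. All 9 choroid plexus markers were lower there, their mean running from 8.22 to 8.41 on ethanol arrays, against 8.52 to 8.65 on controls. Meningeal markers were lower in 7 of 8 (7.81 to 7.85 on ethanol arrays, against 7.97 to 8.06 on controls) and astrocyte markers in 8 of 8, with a median of -0.056. Cerebellar markers were lower in 7 of 7 (median -0.14). Their mean was -0.040, -0.027 and -0.34 from the control mean on the ethanol arrays, against 0.11, -0.047 and -0.067 on controls. Oligodendrocyte markers were lower in 5 of 5 (median -0.012), but in 2 of 5 after quantile normalization (median 0.014). Microglia markers were lower in 3 of 5 (median -0.11). Olfactory mucosa markers were lower in 6 of 8 (median -0.26). Their mean was at 1.02, -0.85 and -0.90 on the ethanol arrays, against -0.75, 1.71 and -0.96 on controls. Pituitary markers were higher in 7 of 7 (median 0.48). Their mean was at -0.073, 2.38 and -0.059 on the ethanol arrays, against -0.10, -0.16 and 0.27 on controls. Neuronal markers were higher in 4 of 6 (median 0.033), but in 2 of 6 with median centring. The part of these marker lists in the lower values of Adh1, Aldh2, Aldh3a2 and Cat was not tested.

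Over all probe sets as deposited, the sign of the ethanol difference went with signal. In the dimmest quartile, 20.7% of all probe sets were lower on the ethanol arrays, and 0 of the 3 enzymes there (Adh4, Adh7 and Cyp2e1) were. All 3 were below 0 after quantile normalization. With median centring Adh4 stayed above 0 (0.0097), and Adh7 and Cyp2e1 were at -0.00364 and -0.00012. In the brightest quartile, 77.5% of all probe sets were lower, as were 2 of 3 enzymes (Cat and Aldh3a2, but not Adh5). The third quartile had 77.3% lower and held Aldh2, while the second had 42.1% lower and held Adh1 and Aldh1b1, which were both lower. The quartile medians were 0.041, 0.016, -0.051 and -0.039 log2 units from dim to bright, of the same order as the enzymes' own differences. The part of this tilt in the enzymes' values was not tested.

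**Figure D4:**
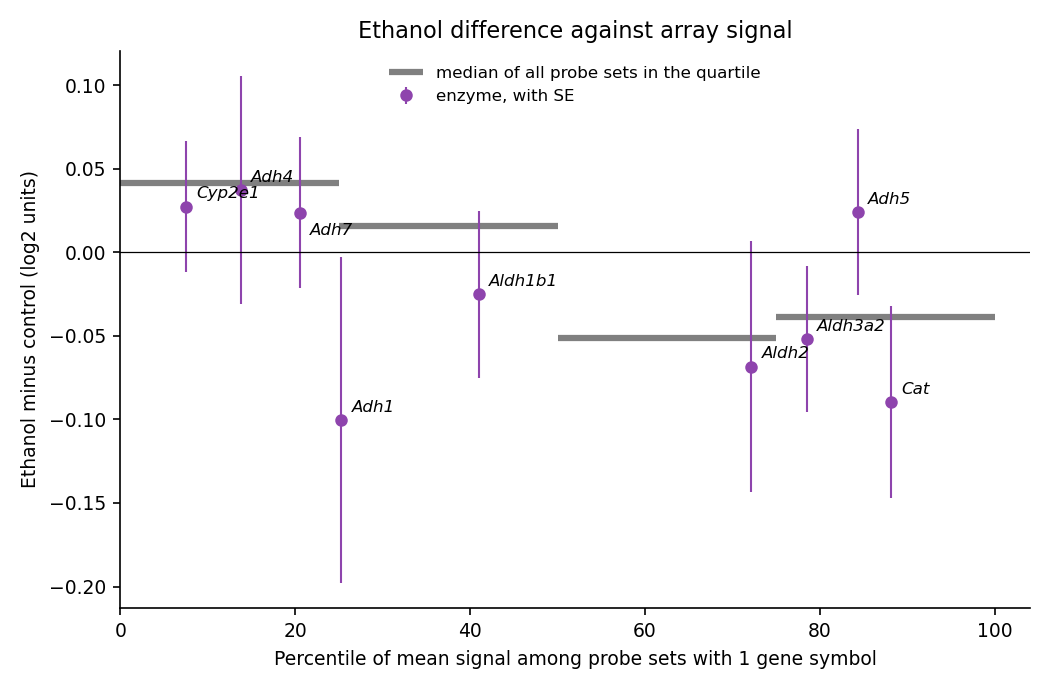
Ethanol minus control difference over both experiments (vertical axis, log2 units, bars are SE) against the percentile of mean array signal for each enzyme, with grey lines at the median difference of all probe sets in each quartile of signal. Quartile medians pass from 0.041 at the dim end to -0.039 at the bright end. Adh4, Adh7 and Cyp2e1 lie above 0 as deposited, while Cat, Aldh3a2 and Aldh2 lie below. After quantile normalization Adh4, Adh7 and Cyp2e1 are below 0, and with median centring Adh7 and Cyp2e1 are but Adh4 is not.

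Other genes of ethanol and aldehyde handling were examined from lists of 71 symbols, of which 62 were measured. None passed adjusted p 0.05 over both experiments by limma (smallest adjusted p = 0.306). With an unadjusted p under 0.05, 11 were lower (7.68% of all probe sets were) and 3 higher (4.72%), with a median of -0.031 over the 62.

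The aldehyde dehydrogenases outside the 9 were lower in 12 of 17, with a median of -0.060 as deposited and -0.031 after quantile normalization. The 2 with the smallest p were Aldh1a1, a cytosolic enzyme that makes retinoic acid and also accepts acetaldehyde (-0.14 ± 0.04 log2 units, limma adjusted p = 0.306), and Aldh9a1, which oxidizes the aldehyde of the GABA precursor aminobutyraldehyde (-0.14 ± 0.04, adjusted p = 0.311). Each was below the control mean on 5 of 5 ethanol arrays. Other alcohol and aldehyde reductases were lower in 4 of 5. Adhfe1, a mitochondrial iron-type hydroxyacid-oxoacid transhydrogenase, had -0.13 ± 0.05 and Akr1b8, an aldo-keto reductase, -0.018 ± 0.051. Adh6a and Adh6b, which lie between Adh1 and Adh4 in the cluster, had 0.015 and -0.014, with 0.11 in the other probe set of Adh6b.

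Genes of the peroxisome, where catalase resides, were lower in 15 of 19, with a median of -0.080 (-0.039 after quantile normalization) and 6 lower at an unadjusted p under 0.05 (7.68% of all probe sets were). Another 2 were higher at that threshold (4.72% of all probe sets were), named after their values were seen: Pxmp2, a peroxisomal membrane channel protein (0.16 ± 0.06), and Acox2, an acyl-CoA oxidase of bile acid and branched-chain fatty acid breakdown (0.10 ± 0.04). Pex10 and Pex13, membrane proteins of the matrix protein import machinery, had -0.20 ± 0.06 and -0.15 ± 0.04 log2 units (limma adjusted p = 0.306 and 0.308). Dao, D-amino acid oxidase, a peroxide-forming enzyme of astrocytes and cerebellum, had -0.33 ± 0.11 (adjusted p = 0.315). Pex10, Pex13 and Dao were below the control mean on 5 of 5 ethanol arrays. Of the 19 peroxisomal genes, 16 lay above the median signal, where most probe sets were lower. In a limma fit of the 10894 probe sets above the median signal alone, 1473 were lower and 102 higher at an unadjusted p under 0.05. The 7 cerebellar markers were also all lower, by a median of -0.20. Their mean ran from 10.2 to 10.6 on ethanol arrays, against 10.8 on controls of experiment 1, and from 10.3 to 10.6 on ethanol arrays, against 10.6 to 10.8 on controls of experiment 2, and their part in the Dao value was not tested.

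Among P450 partners and other ethanol-oxidizing P450s, 3 of 6 were lower as deposited and 5 of 6 after either rescaling. Cyp3a25, a steroid- and drug-metabolizing P450 known from liver, had 0.23 ± 0.07 log2 units (limma adjusted p = 0.306), above the control mean on 5 of 5 ethanol arrays, and Cyb5r3, cytochrome b5 reductase, had -0.088 ± 0.055. For acetate, 5 of 7 genes were lower as deposited and 3 of 7 after quantile normalization. Acss1, the mitochondrial acetyl-CoA synthetase, had -0.13 ± 0.08, and its relative Acss3 had 0.054 ± 0.055. Esd, the S-formylglutathione hydrolase that acts after Adh5, had -0.030 ± 0.059 and the carbonyl reductase Cbr1 -0.082 ± 0.052, with all 3 of that list lower as deposited and 2 of 3 after quantile normalization, where Esd was at 0.0029. Of 5 genes for non-oxidative products, 3 were lower, with Pld2, a phospholipase D that can form phosphatidylethanol, at -0.12 ± 0.05 in its brighter probe set and 0.023 in its other, and the carboxyl ester lipase Cel at 0.055 ± 0.043.

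**Figure D5:**
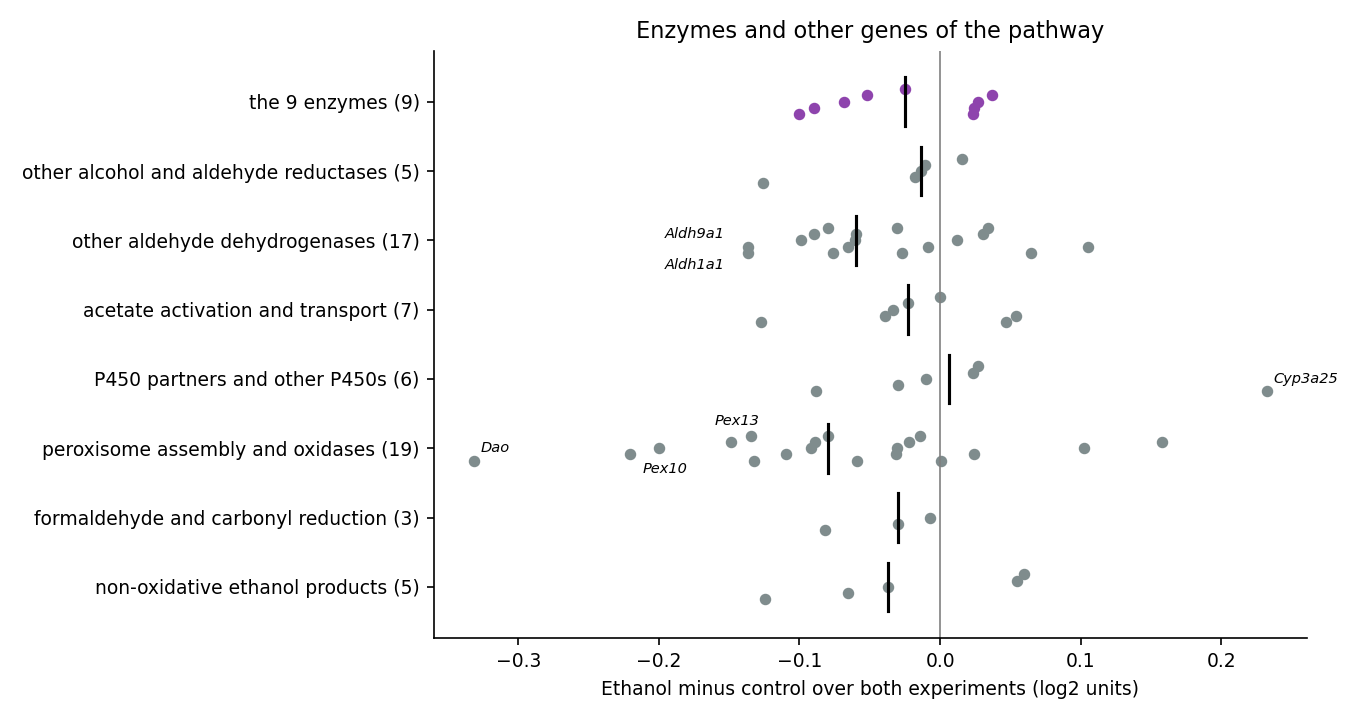
Ethanol minus control difference over both experiments (horizontal axis, log2 units) of the 9 enzymes (purple) and of each measured gene of the other pathway lists (grey), 1 probe set per gene, with the list median as a black bar and the number of genes in parentheses; genes at an unadjusted p under 0.01 are named. The enzymes span -0.10 to 0.04, and the farthest genes are Dao at -0.33 and Cyp3a25 at 0.23.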

How the data were processed

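Whole-brain RNA, 200 ng per array, was hybridised to Affymetrix whole-transcript arrays (labels' protocols). The deposited values are log2 expression levels of 35556 probe sets on 10 arrays. The submitters' processing notes name Partek 6.6. How background was corrected, how arrays were normalized, whether a batch was removed and which genome build was used is not stated there.

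Arrays were grouped by their titles. Gene symbols came from the platform's annotation table, and the 21789 with 1 symbol were tested. Differences, ethanol minus control, were fitted with limma 3.58.1 in R 4.3.3 (lmFit, eBayes, Benjamini-Hochberg over all 21789): in an additive model of treatment and experiment (7 residual degrees of freedom), and with a mean for every group (6) for the values within experiments. The number of arrays limits the precision. P-values measure the spread between pools, whose litters are not given. The fit was tested on simulated data.

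The enzymes, gene lists and tests were chosen with earlier results of these data known. Lists used the brightest probe set of a gene. All 9 enzymes are named, and from each other list the 2 genes with the smallest unadjusted p and any under 0.01. Adh6a and Adh6b were named for their place in the cluster, after their values were seen. The marker lists of erythrocytes (2 of 8 measured), endothelium, oligodendrocytes and microglia had median differences of 0.062, -0.017, -0.017 and -0.050. Alternatives were other normalizations, filters on dim probe sets, all probe sets, 1 probe set per gene, other variance priors, array weights, pool weights, no experiment term, each experiment alone, a replicate block, an exact permutation test and each array left out. Figures were drawn with matplotlib 3.10.9.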

Additional observations from a re-analysis of the deposited data

Results flagged for a closer look

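Adh1 was the enzyme whose ethanol difference differed between the experiments at an unadjusted p under 0.05. Experiment 2 minus experiment 1 was -0.41 ± 0.17 log2 units (limma unadjusted p = 0.0331, adjusted p = 0.745), with 2 of 2 ethanol arrays above the control mean in experiment 1 and 3 of 3 below it in experiment 2. It fails the correction over all probe sets, and over the alternatives its adjusted p ran from 0.420 to 0.931. Without control replicate 2 of experiment 2 the value was -0.25 (limma unadjusted p = 0.0134, adjusted p = 0.924). In that fit the experiment 1 difference of Adh1, unchanged at 0.14, had limma unadjusted p = 0.0386 and adjusted p = 0.575. With all arrays its limma unadjusted p was 0.290. Groups of 2 or 3 arrays are too small for a test of single outlying arrays.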

How the results depend on the processing

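No enzyme passed adjusted p 0.05 in any comparison under any alternative run. The lowest adjusted p of an enzyme was 0.293 over both experiments, 0.558 in experiment 1, 0.228 in experiment 2 and 0.420 for the difference between experiments. The cause of the changes below was not tested.

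Of the differences over both experiments, quantile normalization gave -0.00382 for Adh4, -0.022 for Adh7 and -0.013 for Cyp2e1, and median centring gave -0.00333 for Adh5, -0.00364 for Adh7 and -0.00012 for Cyp2e1, all of which are above 0 as deposited. In experiment 1, quantile normalization gave -0.00464 for Adh4 and -0.017 for Adh7, and median centring -0.000365 for Aldh3a2 and -0.00308 for Cat. In experiment 2, quantile normalization gave -0.00327 for Adh4, -0.026 for Adh7 and -0.027 for Cyp2e1. Median centring there gave -0.00604 for Adh4, -0.018 for Adh5, -0.027 for Adh7 and -0.031 for Cyp2e1, and array weights gave -0.00964 for Adh4. For the difference between experiments Adh4 was 0.00137 after quantile normalization and Aldh1b1 -0.011 after median centring.

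With single arrays left out, differences over both experiments ran from -0.14 to 0.010 for Adh1 (highest without control replicate 2 of experiment 2), from -0.013 to 0.086 for Adh4, from -0.00784 to 0.054 for Adh5 and from -0.051 to 0.00386 for Aldh1b1. In experiment 1 the ranges were -0.12 to 0.20 for Adh4, -0.038 to 0.093 for Adh5, -0.00926 to 0.089 for Adh7, -0.14 to 0.24 for Aldh2, -0.12 to 0.051 for Aldh1b1, -0.047 to 0.064 for Aldh3a2 and -0.059 to 0.071 for Cat. In experiment 2 they were -0.020 to 0.12 for Adh4, -0.037 to 0.076 for Adh5, -0.025 to 0.054 for Adh7, -0.055 to 0.038 for Aldh1b1 and -0.016 to 0.041 for Cyp2e1. For the difference between experiments they were -0.17 to 0.15 for Adh4, -0.072 to 0.060 for Adh5, -0.076 to 0.022 for Adh7 and -0.069 to 0.11 for Aldh1b1, and kept their sign at -0.39 to -0.0082 for Aldh2, -0.22 to -0.094 for Cat and -0.16 to -0.046 for Aldh3a2.

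The number of enzymes at an unadjusted p under 0.05 in experiment 2 was 1 as deposited. It was 3 with median centring, 0 with all probe sets or an unmoderated linear model, and 2 with the trend and robust prior, array weights, the replicate block or experiment 2 alone. With single arrays left out it ran from 0 (without control replicate 2 or ethanol replicate 2 or 3 of experiment 2) to 2 (without ethanol replicate 1 or 2 of experiment 1, or control replicate 3 or ethanol replicate 1 of experiment 2). For the difference between experiments it was 0 above the median level, with all probe sets and with the unmoderated model, and 0 to 1 with arrays left out (0 without control replicate 2 or either ethanol array of experiment 1, or ethanol replicate 2 or 3 of experiment 2). Over both experiments, and in experiment 1, it ran from 0 to 1 with arrays left out. The 1 over both experiments was Aldh2 without control replicate 2 of experiment 1, and Cat without its ethanol replicate 2. The replicate block changed no other count of enzymes, and gave 2638 probe sets over both experiments, against 2703 without it. In experiment 2, deviations from the group means correlated at -0.15 to 0.23 for same-numbered arrays and at -0.23 to 0.21 for differently numbered ones. In experiment 1 the values were -0.052 and 0.052. With 2 arrays per group these are mirror images and cannot show pairing. The numbers were not treated as pairs. The median of the enzymes over both experiments ran from -0.051 to 0.010 with arrays left out and was -0.060 above the 25th percentile or the median level. That in experiment 2 was -0.057 with median centring and -0.12 above the 25th percentile or the median level, where only the brighter enzymes remain. For the difference between experiments it was -0.13 with either filter, and in experiment 1 it ran from -0.00941 to 0.064 with arrays left out.

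Over all probe sets, 2703 had an unadjusted p under 0.05 for both experiments, but 1575 above the median level, where fewer were tested. In experiment 1 the 1951 became 1099 above the median level, 1154 with array weights and 1061 with experiment 1 alone, and ran from 1126 (without its control replicate 1) to 2810 with arrays left out. In experiment 2 the 2172 became 1345 above the median level, 3264 with all probe sets and 3276 with array weights. For the difference between experiments the 1432 became 830 above the median level and 2423 with all probe sets, and ran from 1139 to 2692 (without ethanol replicate 1 of experiment 1). Calls at adjusted p 0.05, 0 as deposited, were 1 with experiment 1 alone, and in experiment 2 were 3 with the trend and robust prior and 2 with array weights. With arrays left out they ran from 0 to 1 over both experiments, 0 to 235 in experiment 1, 0 to 1 in experiment 2 and 0 to 94 for the difference between experiments, both of the largest without ethanol replicate 1 of experiment 1. Of all probe sets at an unadjusted p under 0.05 over both experiments, 1674 were lower and 1029 higher. The split was 1375 and 482 after quantile normalization and 2945 and 425 after median centring.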

Other observations

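Of the 62 other pathway genes, 4 had an unadjusted limma p under 0.05 for the difference between the experiments, a share near the 6.57% of all probe sets. All 4 were aldehyde dehydrogenases, of which these lists held 17, and were named after their values were seen. Aldh3b2 differed by 0.26 ± 0.11 log2 units in experiment 1 and -0.19 ± 0.09 in experiment 2, Aldh6a1, the mitochondrial methylmalonate semialdehyde dehydrogenase, by 0.12 ± 0.07 and -0.18 ± 0.06, Aldh3b1 by 0.11 ± 0.09 and -0.21 ± 0.07, and Aldh1a7 by 0.21 ± 0.10 and -0.087 ± 0.084. None passed adjusted p 0.05, the smallest over the other pathway genes in that test being 0.665.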
